A study of Mus musculus with 18 samples.

Results

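The tumor necrosis factor (TNF) ligand and receptor superfamily was taken as the protein-coding genes of the GENCODE vM21 mouse annotation whose symbol starts with Tnfrsf or Tnfsf followed by a digit, which gave 31 genes of 21938, with 20 receptors and 11 ligands. Genes of the superfamily that carry other symbols, such as Tnf, Ltb and Fas, are not members and were kept as separate lists. The study mapped 2 histone marks by ChIP-seq in sorted cells of adult C57BL6 mouse bone marrow, H3K27ac at active promoters and enhancers and H3K4me3 mainly at promoters. Erythroblasts (ERY) were sorted as Ter119+ CD44+ cells of low forward scatter, and immature megakaryocytes (iMK) as CD41+ CD61+ cells without Ter119, Sca1 or cKit, and both sorts left out cells carrying CD4, CD8, IL7Ra, CD11b, Ly6g or CD45R. Each mark had 2 libraries of each cell type, called ERY 1, ERY 2, iMK 1 and iMK 2 here, and each library was deposited as a list of peaks without the read depth behind it. The mice were male by the study's methods, and the labels name no treatment or altered allele. Replicates are not numbered in the labels, and by the study's methods they came from separate groups of mice or from separately sorted portions of the same mice, so the spread between them may be partly technical.

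Ligands of this superfamily are mostly trimeric proteins of the cell surface that are also shed, and each binds a receptor with cysteine-rich repeats outside the cell. Receptors with a death domain recruit adaptors that lead to caspases or to NF-kB, receptors without one bind TRAF proteins that lead to NF-kB and MAP kinases, and decoy receptors bind a ligand without passing the signal on. Many members are known from lymphocytes, macrophages and dendritic cells, where they act in inflammation and costimulation, and TNF and TRAIL are known to restrain the growth of erythroid precursors in culture.

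Promoter calls used all annotated starts of a gene (TSS): a promoter was called in a library when a listed peak shared at least 1 bp with the stretch within 1 kb of one of them. Coverage is the percent of a locus, taken as the gene with a flank of 10 kb at either end, that lay under peaks. A value of 0% says that no peak was listed, not that the mark was absent. The H3K27ac lists held 21768 to 25750 peaks, covering 64.9 and 77 Mb in ERY and 42.9 and 53.2 Mb in the libraries labelled iMK. The H3K4me3 lists were less even, with 6275 to 13222 peaks and 9.02 to 33.8 Mb, and iMK 2 was the longest. All 10 erythroid marker genes had higher H3K27ac coverage in ERY (limma with Benjamini-Hochberg adjustment over all genes), with summed coverage of 660 and 595 against 26.4 and 30.4. Markers of the other label were split, and of 14 megakaryocyte genes Fli1, Selp and Itgb3 were higher in the pair labelled iMK, 4 (among them Vwf, Gp1ba and Gp9) were higher in ERY, and Gp5, Gp6 and Pf4 had no H3K27ac peak. Summed over the 14, H3K27ac coverage was higher in ERY, at 238 and 208 against 73.6 and 107 in the pair labelled iMK. Itga2b, which encodes the sort marker CD41, had H3K27ac coverage of 16.8% and 3.8% in ERY and 0% in both libraries labelled iMK, so these are called the libraries labelled iMK throughout. Its H3K4me3 coverage was 0% in both ERY libraries and iMK 1 and 6.52% in iMK 2, and H3K4me3 at Itgb3 (0%, 0%, 1.94% and 6.06%) and Fli1 (0%, 0%, 2.13% and 9.53%) was listed in both libraries labelled iMK and neither of ERY. Of 20 neutrophil and macrophage markers 10 rose in the pair labelled iMK and 0 in ERY. Their summed H3K27ac coverage was 65.2 and 43.6 in ERY against 395 and 627 (Spi1 and Lyz2 at 0% in ERY). Genes of antigens that the sorts left out are among them, Itgam (CD11b) and Ly6g, both at 0% in ERY. In the pair labelled iMK, Itgam was at 10.3% and 17.1% (limma adjusted p = 0.0401) and Ly6g at 5.02% and 14.2% (limma adjusted p = 0.132). Il7r, of another such antigen, was at 3.6% in iMK 2 alone. Of 13 B and T cell markers, Cd3d, Cd3g and Cd79b were higher in the pair labelled iMK, 0 were higher in ERY, and Cd3e, Cd4, Cd8a, Ms4a1 and Pax5 had no H3K27ac peak in any library, with summed coverage of 49.4 and 34.7 in ERY against 52.7 and 61.3. The part of these markers in the results on the superfamily was not tested. Each list comes from a population of cells, in which more cells with a mark and more of the mark per cell cannot be told apart.

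Few promoters of the superfamily carried H3K27ac in ERY, and about as many as among all genes carried it in the libraries labelled iMK. H3K27ac promoters were called for 7 and 5 of the 31 members in ERY 1 and ERY 2, and for 15 and 16 in iMK 1 and iMK 2. These are 22.6% and 16.1% of members in ERY beside 41.7% and 39.4% of all protein-coding genes, and 48.4% and 51.6% in the libraries labelled iMK beside 47.6% and 49% of all genes. The share in the libraries labelled iMK was thus close to the background, and the share in ERY was under it in both libraries. No member was ERY-only, that is, called in both ERY libraries and in neither labelled iMK, a class that held 2.17% of all genes. The opposite class, iMK-only, held 10 members (Tnfrsf1a, Tnfrsf1b, Tnfrsf12a, Tnfrsf13b, Tnfrsf21, Tnfrsf22, Tnfrsf23, Tnfsf9, Tnfsf12 and Tnfsf14), which is 32.3% of members beside 8.56% of all genes. Called in all 4 libraries, or shared, were Tnfrsf9, Tnfrsf14, Tnfsf10 and Tnfsf13, which is 12.9% beside 36.0% of all genes. Another 5 members had an unreplicated call, meaning any other pattern (16.1% beside 6.11% of all genes), of which Tnfrsf4, Tnfrsf18 and Tnfrsf25 were called in ERY 1 alone, Tnfsf13b in iMK 2 alone and Tnfrsf26 in all but ERY 1. The remaining 12 members had no promoter call (38.7% beside 47.2%). Without ERY 2, the calls in ERY 1 alone became 3 ERY-only members, and the share of all genes under that setting is not given here.

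**Figure D1:**
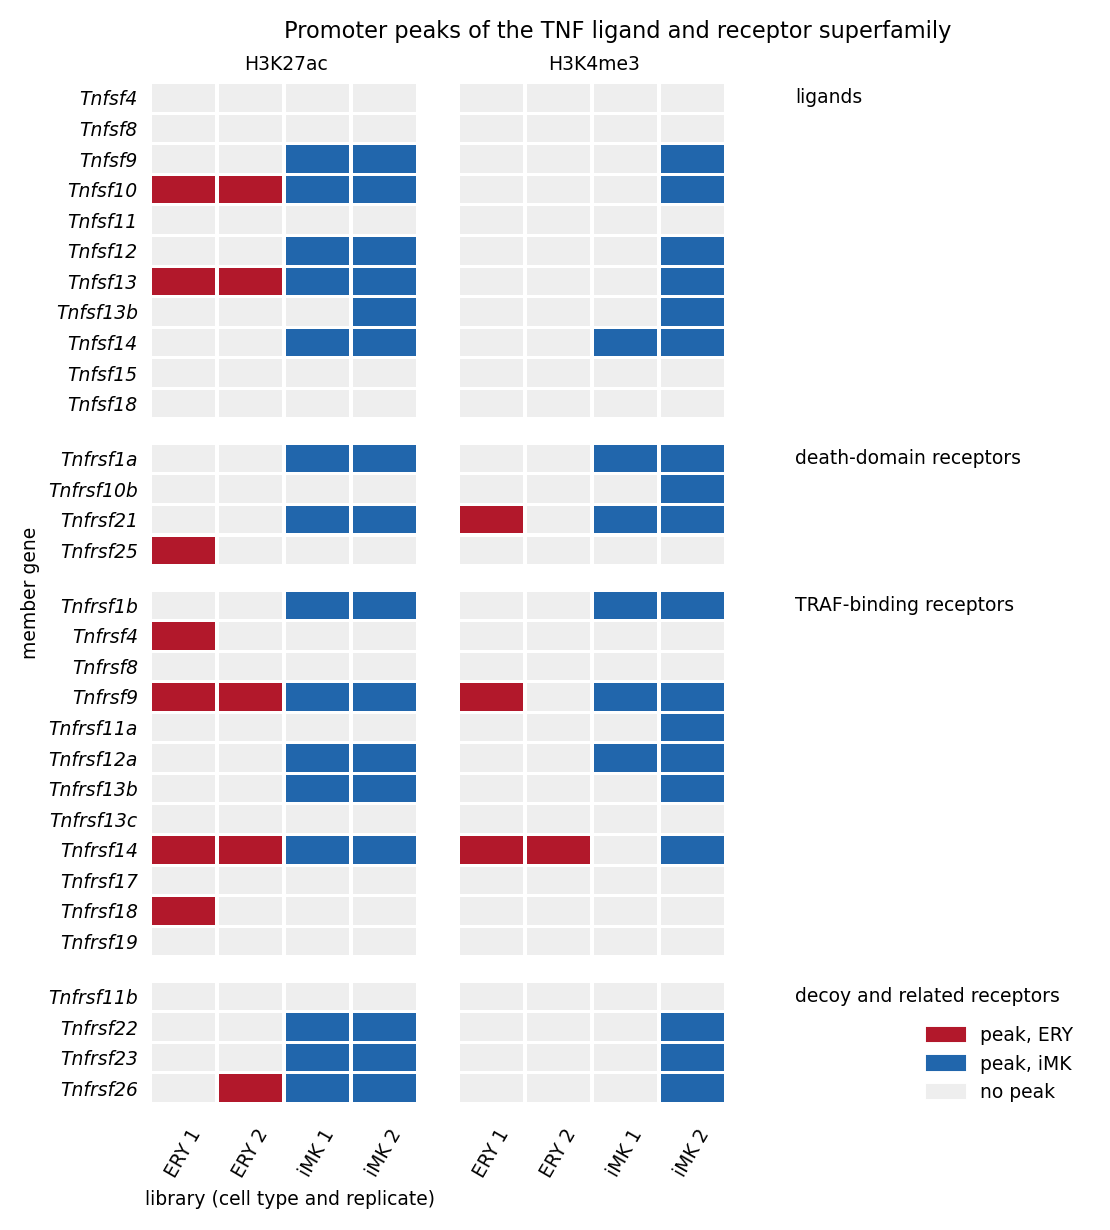
Promoter peaks of all 31 members (rows, grouped by role) in the 4 libraries of each mark (columns), where a filled cell is a peak within 1 kb of an annotated start site. H3K27ac fills 10 rows in both libraries labelled iMK and in neither ERY library, no row shows the opposite, and 11 members have an H3K4me3 call in iMK 2 alone.

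H3K4me3 promoters were called for 3 and 1 members in ERY 1 and ERY 2, and for 6 and 18 in iMK 1 and iMK 2. These are 9.68%, 3.23%, 19.4% and 58.1% of members beside 38.6%, 28.8%, 35.5% and 52.8% of all genes. No member was ERY-only (0.378% of all genes), 4 were iMK-only (Tnfrsf1a, Tnfrsf1b, Tnfrsf12a and Tnfsf14, 12.9% beside 4.89% of all genes), and none was shared, a class that held 24.6% of all genes. Of the 14 unreplicated members (45.2% beside 23.8% of all genes), 11 were called in iMK 2 alone, the longest H3K4me3 list, and were Tnfrsf10b, Tnfrsf11a, Tnfrsf13b, Tnfrsf22, Tnfrsf23, Tnfrsf26, Tnfsf9, Tnfsf10, Tnfsf12, Tnfsf13 and Tnfsf13b. The other unreplicated members were Tnfrsf9 and Tnfrsf21, called in all but ERY 2, and Tnfrsf14, called in all but iMK 1. The last 13 members had no H3K4me3 promoter call (41.9% beside 46.3%). Most member promoters with H3K27ac calls in both libraries of a cell type did not have H3K4me3 calls in both. Of 4 members with H3K27ac calls in both ERY libraries only Tnfrsf14 also had H3K4me3 calls in both (25% beside 72.3% of all genes), and of 15 such members in the libraries labelled iMK 6 had both marks (40% beside 73.9%), namely Tnfrsf1a, Tnfrsf1b, Tnfrsf9, Tnfrsf12a, Tnfrsf21 and Tnfsf14. The counts for iMK-only and shared H3K4me3 promoters rested on single lists: without iMK 1 they were 15 and 1, and without ERY 2 they were 4 and 2. Over all genes, too, iMK 2 had more calls than iMK 1 (52.8% against 35.5%). The shares of these classes over all genes with a list left out are not given here, so the counts have no background beside them.

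**Figure D2:**
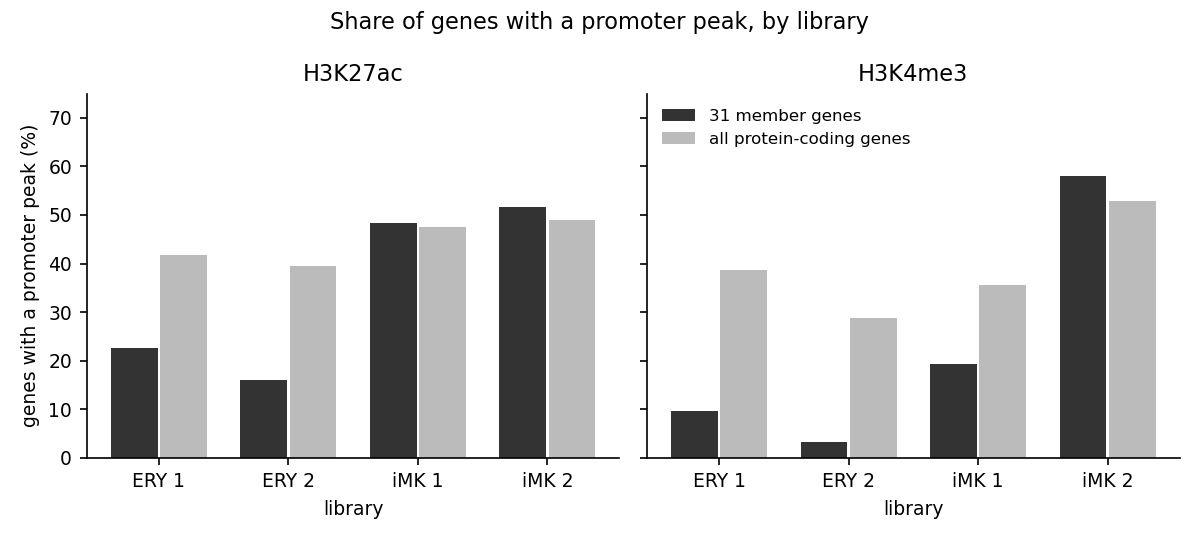
Percent of the 31 member genes (dark bars) and of all protein-coding genes (light bars) with a promoter peak in each library, for H3K27ac (left) and H3K4me3 (right). Members stand at 22.6% and 16.1% in the ERY libraries for H3K27ac, beside 41.7% and 39.4% of all genes, and near all genes in the libraries labelled iMK.

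A group of 6 loci had no peak of either mark in any library, the ligand genes Tnfsf4 (OX40 ligand), Tnfsf11 (RANKL), Tnfsf15 (TL1A) and Tnfsf18 (GITR ligand), and the receptor genes Tnfrsf11b (osteoprotegerin, a secreted decoy for RANKL) and Tnfrsf19 (TROY). Tnfsf8 (CD30 ligand) had 1 H3K27ac peak in its locus, in iMK 1 at 2.8%, and no H3K4me3 peak.

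Locus coverage by H3K27ac differed between the cell types for 10 of the 25 members that had a peak in the locus in at least 1 library. Coverage was higher in ERY for 2 (8% of the 25 beside 22.0% of 14467 genes fitted) and higher in the libraries labelled iMK for 8 (32% beside 17.2%), by limma's moderated test with Benjamini-Hochberg adjustment over all genes. The 6 other members had no peak and did not enter the fit, 9 of those that did were at 0% in both ERY libraries and entered through the libraries labelled iMK alone, and 3 (Tnfrsf4, Tnfrsf13c and Tnfrsf25) entered through ERY alone, so the counts describe the set and are not a test of it. Without ERY 1 the counts were 2 and 4, without ERY 2 they were 4 and 3, without iMK 1 they were 1 and 12, and without iMK 2 they were 1 and 9. The counts over all genes, 3189 higher in ERY and 2490 higher in iMK, moved too, to 2490 and 756 without ERY 1, 3276 and 754 without ERY 2, 917 and 3248 without iMK 1, and 927 and 2816 without iMK 2. Values of the 4 libraries did not overlap between the cell types, with ERY higher, for the same 2 members (41.1% of all genes), and with iMK higher for 14 members (56% beside 31.3% of all genes). The median difference of ERY minus iMK was -6.09 percentage points over the 25 members and 0.599 over all genes fitted.

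**Figure D3:**
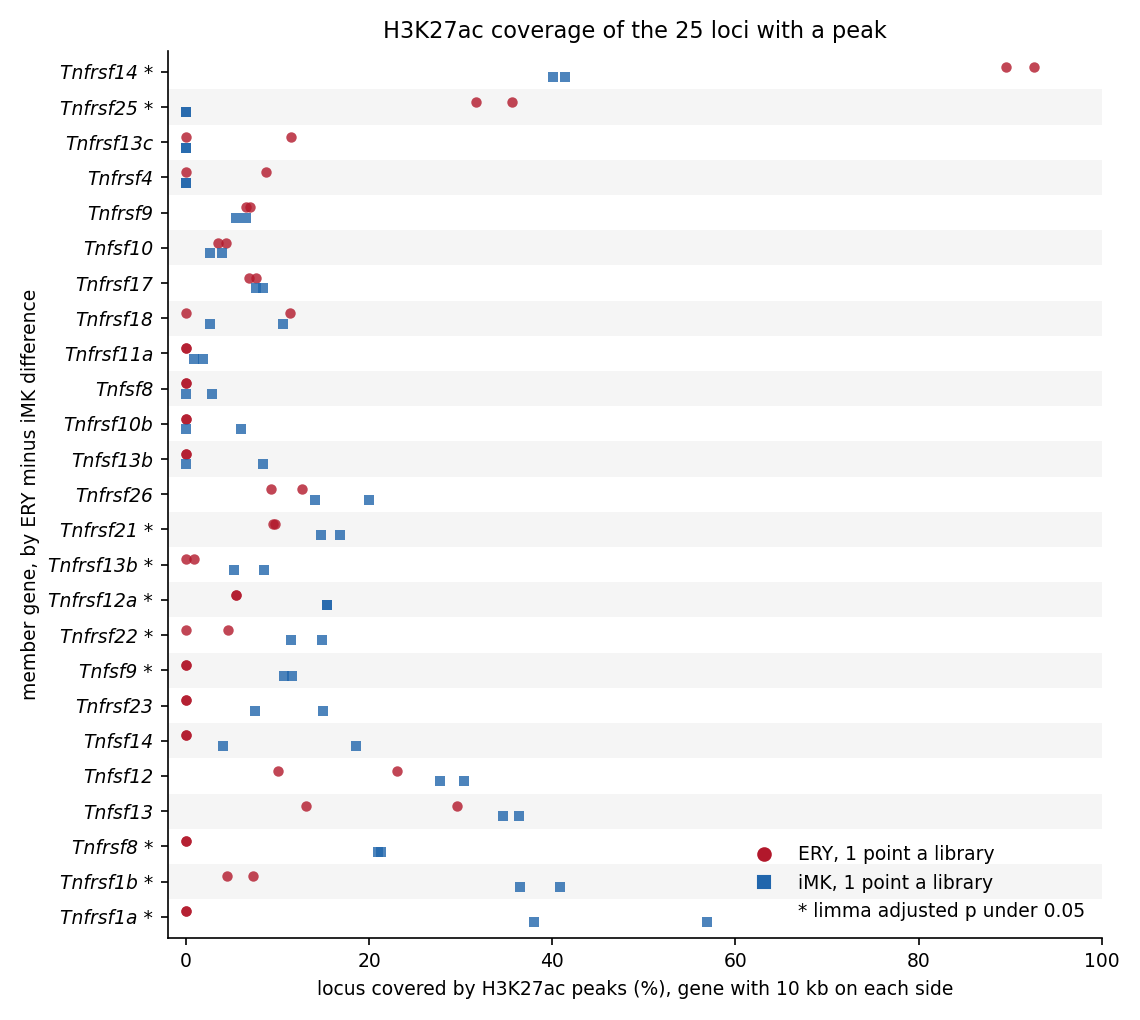
Percent of the locus under H3K27ac peaks for the 25 members with a peak, with 1 point per library (circles ERY, squares iMK), ordered by the difference of ERY minus iMK, and an asterisk where limma's adjusted p is under 0.05. Tnfrsf14 and Tnfrsf25 stand higher in ERY, and Tnfrsf1a, Tnfrsf1b and Tnfrsf8 show the widest gaps in the other direction.

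The promoter sequences of the members with the largest H3K27ac differences are shown as the sequence at or near the starts of these genes. They are the 300 bp windows of RefSeq on GRCm38.p6 (the assembly that mm10 names), from 250 bases before to 50 after a start, written 5′ to 3′ on the strand of the gene, and capitals mark matches to the motifs GGGCGG and TGANTCA on either strand. The windows of Tnfrsf14 and Tnfrsf1a belong to starts 486 and 361 bp inside the outermost one, from which distances are measured in the text. Tnfsf9 also belongs to these members and has no window here.

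Tnfrsf14, minus strand, chr4:154928028-154928327
Tnfrsf14: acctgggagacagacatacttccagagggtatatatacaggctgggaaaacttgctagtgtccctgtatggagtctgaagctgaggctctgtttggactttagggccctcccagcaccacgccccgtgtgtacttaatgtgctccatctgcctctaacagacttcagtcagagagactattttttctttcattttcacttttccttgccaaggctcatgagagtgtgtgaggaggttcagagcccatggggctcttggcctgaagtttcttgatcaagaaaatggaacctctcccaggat
Tnfrsf25, plus strand, chr4:152115684-152115983
Tnfrsf25: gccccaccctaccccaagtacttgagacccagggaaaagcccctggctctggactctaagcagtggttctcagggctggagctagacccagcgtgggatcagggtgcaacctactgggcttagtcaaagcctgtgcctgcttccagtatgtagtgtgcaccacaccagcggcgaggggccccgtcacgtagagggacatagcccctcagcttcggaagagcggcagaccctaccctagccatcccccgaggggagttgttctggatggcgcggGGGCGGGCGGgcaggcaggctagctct
Tnfrsf1a, plus strand, chr6:125349473-125349772
Tnfrsf1a: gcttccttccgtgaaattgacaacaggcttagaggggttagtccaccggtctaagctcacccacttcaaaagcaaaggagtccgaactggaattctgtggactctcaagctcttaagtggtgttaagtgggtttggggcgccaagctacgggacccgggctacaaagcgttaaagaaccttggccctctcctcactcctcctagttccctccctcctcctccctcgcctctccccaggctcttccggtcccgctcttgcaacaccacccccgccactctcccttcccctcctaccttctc
Tnfrsf1b, minus strand, chr4:145246821-145247120
Tnfrsf1b: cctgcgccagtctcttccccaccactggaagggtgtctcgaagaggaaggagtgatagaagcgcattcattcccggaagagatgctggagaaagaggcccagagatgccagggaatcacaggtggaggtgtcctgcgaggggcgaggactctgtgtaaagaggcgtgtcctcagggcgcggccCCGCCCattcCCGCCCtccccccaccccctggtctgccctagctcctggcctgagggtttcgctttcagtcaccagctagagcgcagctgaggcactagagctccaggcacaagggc
Tnfrsf8, minus strand, chr4:145315115-145315414
Tnfrsf8: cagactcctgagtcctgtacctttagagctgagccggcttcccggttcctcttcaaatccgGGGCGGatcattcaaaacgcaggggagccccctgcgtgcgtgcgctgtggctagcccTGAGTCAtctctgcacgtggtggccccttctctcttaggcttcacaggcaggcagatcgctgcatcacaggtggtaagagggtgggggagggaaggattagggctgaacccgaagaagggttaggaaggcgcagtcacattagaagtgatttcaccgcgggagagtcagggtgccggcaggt

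The Tnfrsf14 window, with 2 CG dinucleotides and no motif match, lay wholly under H3K27ac peaks in all 4 libraries. The windows of Tnfrsf1a (11 CG, no match) and Tnfrsf1b (13 CG, 2 GGGCGG matches) lay wholly under H3K27ac peaks in both libraries labelled iMK and had no base under a peak in ERY. The Tnfrsf25 window (12 CG, 2 overlapping GGGCGG matches) was under a peak in ERY 1 alone, and the Tnfrsf8 window (15 CG, a GGGCGG and a TGANTCA match) in no library.

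Among the ligands Tnfsf9, which encodes the 4-1BB ligand, was the one that passed limma for H3K27ac coverage, and Tnfsf12, Tnfsf13 and Tnfsf14 passed under some alternatives, as given with each. The locus of Tnfsf9 (gene at chr17:57105325-57107757) had 0% in ERY 1 and ERY 2, 10.7% in iMK 1 and 11.6% in iMK 2, so that the groups did not overlap. The difference was -11.1 percentage points (SE 0.653, limma adjusted p = 0.0065). A peak covered its TSS in both libraries labelled iMK, with a deposited fold of ChIP over control of 5.12 and 4.23, and H3K4me3 was listed there in iMK 2 alone (11.6%). Counted over the gene body without flanks, the difference was -36 points and did not pass (limma adjusted p = 0.0533).

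Tnfsf14 encodes LIGHT, a ligand of HVEM, and its promoter was the only one among the ligands called for both marks in both libraries labelled iMK. H3K27ac coverage of its locus was 0% and 0% in ERY, 4.05% in iMK 1 and 18.6% in iMK 2. The pair labelled iMK was far apart, and the difference of -11.3 points (SE 5.81) did not pass limma (adjusted p = 0.216). It passed without flanks (-23 points, limma adjusted p = 0.0141), with flanks of 50 kb (-7.36, 0.0153), without iMK 1 (-18.6, 0.00368) and without iMK 2 (-4.05, 0.00224). H3K4me3 coverage was 0% in both ERY libraries and 8.1% in both others, a difference of -8.1 points (SE 3.08, limma adjusted p = 0.772, unadjusted p = 0.027).

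TWEAK and APRIL are encoded side by side by Tnfsf12 (chr11:69686250-69695849) and Tnfsf13 (chr11:69682846-69685784), whose loci overlap each other and the fusion gene Tnfsfm13, so that a peak there counts for several genes. H3K27ac coverage was 23% and 10.1% in ERY and 27.7% and 30.4% in the libraries labelled iMK for Tnfsf12, a difference of -12.5 points (SE 5.43, limma adjusted p = 0.165). For Tnfsf13 it was 29.6%, 13.1%, 34.6% and 36.4% in the same order, a difference of -14.1 points (SE 6.85, limma adjusted p = 0.197). The libraries did not overlap between the cell types for either gene, ERY 2 lay lowest, and some of the peaks lay at the start of the neighbour Senp3. The H3K27ac promoter call of Tnfsf13 was found in all 4 libraries, while that of Tnfsf12 was found in iMK 1 and iMK 2 alone, with folds of 8.25 and 4.13. After quantile normalization of the libraries the differences were -28.3 and -34.2 points and passed limma (adjusted p = 0.0053 and 0.0055), while with a library left out the values moved both ways. Without ERY 1 they were -18.9 for Tnfsf12 and -22.4 for Tnfsf13 (limma adjusted p = 0.0729 and 0.0463), and without ERY 2 they were -6.08 and -5.84 (0.2 and 0.146). H3K4me3 coverage was 6.08%, 2.03%, 0% and 27.7% at Tnfsf12 and 7.85%, 2.62%, 0% and 35.5% at Tnfsf13, and all of it in ERY lay at the start of Senp3.

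Tnfsf10, the gene of TRAIL, had an H3K27ac promoter peak in every library. Its locus was covered at 4.41% and 3.52% in ERY and 3.96% and 2.64% in the libraries labelled iMK, values that overlapped, and the difference was 0.661 points (SE 0.721, 95% interval -1.56 to 2.88, limma adjusted p = 0.495). The peaks were 1200 to 2000 bp wide and spanned the TSS, and H3K4me3 was listed there in iMK 2 alone (3.52%). Tnfsf13b, the gene of the B cell survival factor BAFF, had peaks in iMK 2 alone, at 8.36% for H3K27ac and 2.28% for H3K4me3.

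Of the receptors with a death domain, Tnfrsf1a moved furthest. It encodes the widely expressed TNF receptor that signals through TRADD (gene at chr6:125349362-125362484), and its H3K27ac coverage was 0% in ERY 1 and ERY 2, 38% in iMK 1 and 56.9% in iMK 2. Neither ERY library had a peak of either mark anywhere in the locus. The difference was -47.5 points (SE 7.64, limma adjusted p = 0.0252). In iMK 1 and iMK 2 a peak of 5600 and 7400 bp spanned the start, with folds of 15.8 and 13.8 that stood at the 90 and 90.2 percentiles of their lists, and 47.3% and 47.8% of the covered bases lay upstream of the gene. H3K4me3 coverage was 0%, 0%, 4.83% and 25.4%, a difference of -15.1 points (SE 6.6, limma adjusted p = 0.772, unadjusted p = 0.0475). The H3K27ac call was lost without ERY 1 (-47.5 points, adjusted p = 0.18) and without ERY 2 (-47.5 points, adjusted p = 0.174), where 1 library stands for its cell type, and with all genes kept in the fit (adjusted p = 0.05).

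**Figure D4:**
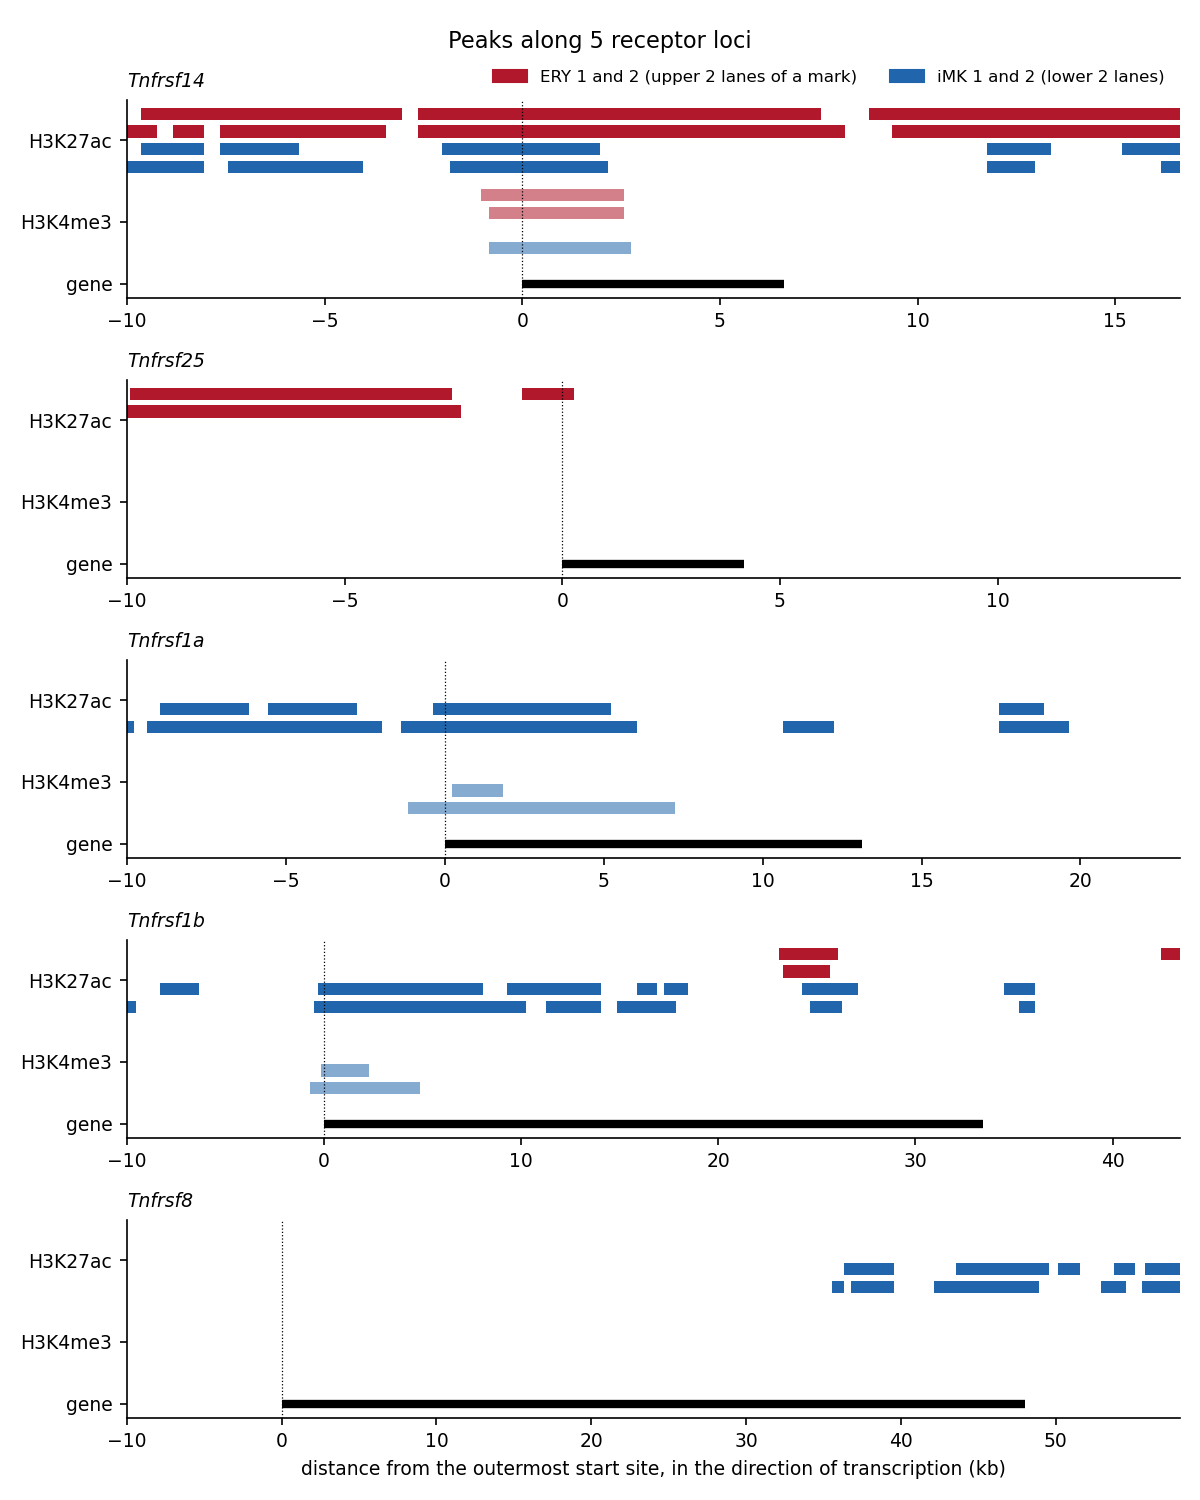
Peaks of both marks along 5 receptor loci, by distance in kb from the outermost start site in the direction of transcription, with 1 lane per library (ERY 1, ERY 2, iMK 1 and iMK 2 from top to bottom for each mark), the gene as a black bar and the locus cut at 10 kb on each side. Tnfrsf14 is covered over its whole body in ERY, Tnfrsf1a and Tnfrsf1b carry both marks at the start in the libraries labelled iMK, and the peaks of Tnfrsf25 and Tnfrsf8 lie mostly upstream of the gene and near its far end.

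Tnfrsf25, the gene of death receptor 3, which binds TL1A and acts in T cells, went the other way. H3K27ac coverage of its locus (gene at chr4:152115934-152120119) was 35.6% in ERY 1, 31.7% in ERY 2 and 0% in both libraries labelled iMK, a difference of 33.6 points (SE 1.98, limma adjusted p = 0.0065). The covered bases lay upstream: 96.9% in ERY 1 and 100% in ERY 2 fell in the 10 kb before the gene, in a peak of 7400 and 8200 bp that also reached a TSS of the neighbour Plekhg5. A peak touched the start of Tnfrsf25 in ERY 1 alone, with a fold of 2. Counted over the gene body alone the difference was 3.19 points (adjusted p = 0.428), and without iMK 1 or iMK 2 it was 33.6 points with an adjusted p of 0.0554 or 0.058. H3K4me3 was not listed in the locus.

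Tnfrsf21 encodes death receptor 6 (gene at chr17:43016555-43089189). Its H3K27ac coverage was 9.72% and 9.5% in ERY against 14.7% and 16.8% in the libraries labelled iMK, without overlap, and the difference was -6.15 points (SE 1.35, limma adjusted p = 0.0463). In ERY the peaks lay inside the gene and after it and none at the start, whereas a peak at the start had a fold of 12.1 in iMK 1 and 10.6 in iMK 2. H3K4me3 was listed at the start in ERY 1, iMK 1 and iMK 2 (1.3%, 2.16% and 3.02%) and not in ERY 2. The H3K27ac call was lost without ERY 1 (-6.26 points, adjusted p = 0.158), without ERY 2 (-6.05, 0.157) and without iMK 2 (-5.07, 0.0725), with all genes kept in the fit (0.069), with equally long peak lists (-4.21, 0.0642) and with the promoters of other genes left out (0.0519). Tnfrsf10b, the mouse receptor of TRAIL, had peaks in iMK 2 alone, at 5.96% for H3K27ac inside the gene and 7.58% for H3K4me3, which included the start.

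Tnfrsf14 had the largest difference of all members on the scale used here and was the TRAF-binding receptor that passed limma with more coverage in ERY. Tnfrsf1a had the larger difference under quantile normalization (-65.3 points), on the arcsine scale and without iMK 1 (-56.9), and Tnfrsf12a without flanks (-98.3). Tnfrsf14 encodes HVEM, the receptor of LIGHT (gene at chr4:154921933-154928563). Its H3K27ac coverage was 92.6% in ERY 1, 89.5% in ERY 2, 40.1% in iMK 1 and 41.4% in iMK 2. Nearly the whole locus was under peaks in both ERY libraries, and no other protein-coding gene lies in it. The difference was 50.3 points (SE 2.34, limma adjusted p = 0.0065). In ERY 1 the peak over the start ran from -2637 to 7562 bp of the TSS and covered 100% of the gene body, as did the matching peak in ERY 2, against 29.6% and 32.6% of the gene body in iMK 1 and iMK 2. The fold of the peak over the start was 9.54 and 6.38 in ERY, at the 97.8 and 94.7 percentiles of their lists, and 6.93 and 8.87 in the libraries labelled iMK, at the 59.4 and 74.9 percentiles. H3K4me3 coverage was 13.5%, 12.8%, 0% and 13.5%, which did not separate the cell types (difference 6.38 points, SE 6.52, limma adjusted p = 0.863). The H3K27ac call held under all 13 alternatives, though quantile normalization, which sets the lists to 1 distribution of coverage, reduced the difference to 13.2 points (adjusted p = 0.0376).

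Tnfrsf1b encodes the other receptor of TNF, which is known from leukocytes and lacks a death domain (gene at chr4:145213463-145246870). H3K27ac covered 7.37% and 4.49% of its locus in ERY, 40.8% in iMK 1 and 36.5% in iMK 2, a difference of -32.7 points (SE 2.58, limma adjusted p = 0.00831). The ERY peaks lay 23070 bp or more from the start, inside the gene and, in ERY 1, beyond its end, while in iMK 1 and iMK 2 a peak of 8400 and 10800 bp covered the start, with folds of 10.6 and 9.34. H3K4me3 was at 0% in both ERY libraries and at 4.49% and 10.5% in the others (difference -7.49 points, SE 3.23, limma adjusted p = 0.772, unadjusted p = 0.0452). The H3K27ac difference was -34.1 points without ERY 1 (adjusted p = 0.0651) and -31.3 without ERY 2 (0.0638).

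Beside Tnfrsf1b lies Tnfrsf8, the gene of CD30, a receptor of activated lymphocytes (gene at chr4:145267137-145315164), which had no promoter call. H3K27ac coverage was 0% in both ERY libraries, 21% in iMK 1 and 21.3% in iMK 2, a difference of -21.1 points (SE 0.943, limma adjusted p = 0.0065) that passed under all 13 alternatives. All peaks lay 35564 bp or more after the start, in the last part of the gene and in the stretch between Tnfrsf8 and Tnfrsf1b, and a peak of iMK 2 there fell in both loci. No H3K4me3 peak was listed.

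Tnfrsf12a, the gene of Fn14, the receptor of TWEAK (gene at chr17:23675445-23677468), was higher in the libraries labelled iMK and lay under peaks nearly from end to end there. Its locus was covered at 5.45% in both ERY libraries and 15.4% in both others, a difference of -9.99 points (SE 0.93, limma adjusted p = 0.0101) that passed under all 13 alternatives. In ERY all covered bases were at the starts of its neighbours Hcfc1r1 and Thoc6, and the gene body was at 0%, against 100% and 96.6% in iMK 1 and iMK 2. H3K4me3 coverage was 4.54%, 0%, 9.99% and 20.9% (difference -13.2 points, SE 5.85, limma adjusted p = 0.772), and in the libraries labelled iMK it included the start.

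The receptors of BAFF and APRIL, known from B cells, differed among themselves. Tnfrsf13b (TACI, gene at chr11:61126755-61149372) was covered by H3K27ac at 0.873% and 0% in ERY and at 5.27% and 8.49% in the libraries labelled iMK, a difference of -6.44 points (SE 1.37, limma adjusted p = 0.0433). Its promoter call came from internal starts, 15706 to 15910 bp downstream of the outermost one, where peaks had folds of 8.32 and 9.08, and the outermost start had no peak in any library. H3K4me3 coverage was 0% in ERY 1, ERY 2 and iMK 1 and 6.57% in iMK 2. The call of a difference was lost without ERY 1 (-6.88 points, adjusted p = 0.207), ERY 2 (-6.01, 0.233) or iMK 2 (-4.83, 0.0844), with flanks of 50 kb (-5.43, 0.109), with all genes kept (0.0847) and without the trend (0.0646). Tnfrsf13c (BAFF receptor) had an H3K27ac peak in ERY 1 alone, at 11.5%, between -7631 and -5032 bp of its start, and an H3K4me3 peak in iMK 2 alone, at 3.54%, at the start of Shisa8. At Tnfrsf17 (BCMA) coverage was 6.85%, 7.62%, 8.38% and 7.62%, none of it in the gene and most of it, at 78.6% to 88.6% of the covered bases, within 1 kb of the start of Snx29.

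Tnfrsf9 encodes the costimulatory receptor 4-1BB, and its H3K27ac coverage was similar in all libraries, at 6.98% and 6.6% in ERY and 6.6% and 5.43% in the libraries labelled iMK (difference 0.776 points, SE 0.798, 95% interval -1.68 to 3.24, limma adjusted p = 0.471). Its outermost start lies within 1 kb of a start of Park7, a gene with a role in the response to oxidative stress, and between 95.2% and 100% of the covered bases lay within 1 kb of a Park7 start, so the peaks cannot be assigned to either gene. H3K4me3 coverage was 3.88% and 0% in ERY, 3.49% in iMK 1 and 6.98% in iMK 2, all of it within 1 kb of a Park7 start. The starts of Tnfrsf9 from 5593 bp downstream on had no peak. Of the remaining receptors that bind TRAF proteins, Tnfrsf11a (RANK, the receptor of osteoclast precursors) had H3K27ac peaks inside the gene at 0.917% and 1.83% in the pair labelled iMK against 0% in ERY (difference -1.38 points, SE 0.387, limma adjusted p = 0.0744). Tnfrsf4 (OX40) and Tnfrsf18 (GITR), neighbours on chromosome 4 whose loci overlap, had promoter peaks in ERY 1 alone. Coverage was 8.78%, 0%, 0% and 0% at Tnfrsf4 and 11.4%, 0%, 2.64% and 10.6% at Tnfrsf18.

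Tnfrsf22, Tnfrsf23 and Tnfrsf26 are a cluster on mouse chromosome 7, of which Tnfrsf22 and Tnfrsf23 bind TRAIL without a death domain. They resemble each other in sequence, and the study's general ChIP-seq pipeline kept reads with several possible positions, so the assignment of peaks to a copy is uncertain. Tnfrsf22 (chr7:143634806-143649661) had H3K27ac coverage of 0% and 4.59% in ERY and 11.5% and 14.9% in the libraries labelled iMK, a difference of -10.9 points (SE 2.4, limma adjusted p = 0.0464). The peak in ERY 2 lay at the start of Tnfrsf26, and the promoter call of Tnfrsf22 came from an internal start 13076 bp downstream. H3K4me3 was listed in iMK 2 alone, at 12.6% of the Tnfrsf22 locus and 3.49% of the Tnfrsf23 locus. The H3K27ac call of a difference at Tnfrsf22 held under 3 of 13 alternatives and was lost without any 1 of the libraries. The difference was -8.6 points without ERY 1, -13.2 without ERY 2, -12.6 without iMK 1 and -9.17 without iMK 2. Tnfrsf23 (chr7:143665809-143685872) was covered at 0%, 0%, 7.49% and 15%, a difference of -11.2 points (SE 3.02, limma adjusted p = 0.0683), with a peak over the start in both libraries labelled iMK at folds of 8.92 and 4.65. It passed without iMK 1 (-15 points, adjusted p = 0.00282) and without iMK 2 (-7.49, 0.00224). Tnfrsf26 (chr7:143607659-143628722) was covered at 9.25%, 12.7%, 14.1% and 20% (difference -6.09 points, SE 2.9, limma adjusted p = 0.192), and 44.8% to 63.4% of those bases lay near the starts of other genes, Cars and Tnfrsf22. Its H3K4me3 coverage was 3.41%, 2.92%, 1.95% and 12.2%, at the start of Cars in the first 3 libraries.

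H3K4me3 coverage passed limma for none of the 21 members with a peak, nor for any of 13561 genes (0% higher in ERY, 0% higher in iMK). At an unadjusted limma p under 0.05 stood 3 members (Tnfrsf1a, Tnfrsf1b and Tnfsf14, 14.3% of the 21 beside 3.55% of all genes). These had no H3K4me3 peak in either ERY library. Of the 21, 13 were at 0% in both ERY libraries and entered the fit through the libraries labelled iMK alone, and 0 entered through ERY alone. The counts, and the median below, therefore describe the set and are not a test of it. Libraries did not overlap with iMK higher for 5 of the 21 (23.8% beside 20.4% of all genes) and with ERY higher for none (2.71% of all genes), and the median difference was -3.3 points beside -1.66 over all genes. Without iMK 1 the count of members higher in iMK was 14, and without iMK 2 it was 3, while over all genes it was 4099 of 13474 and 986 of 11422.

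Of 14 pairs within the set, none had H3K27ac promoter calls of both partners in both ERY libraries, where Tnfsf10, Tnfsf13, Tnfrsf9 and Tnfrsf14 were called without a partner. In the libraries labelled iMK both partners were called for 4 pairs, Tnfsf9 with Tnfrsf9, Tnfsf12 with Tnfrsf12a, Tnfsf13 with Tnfrsf13b and Tnfsf14 with Tnfrsf14. The 14 are not all pairs of the set, and Tnfsf10 with Tnfrsf22 or Tnfrsf23 and Tnfsf11 with Tnfrsf11b were not counted. Tnfsf10, Tnfrsf22 and Tnfrsf23 were all called in both libraries labelled iMK, while Tnfsf11 and Tnfrsf11b had no peak. Promoter calls of the pair of Tnfsf9 and Tnfrsf9 rest partly on the start shared with Park7, and the call of Tnfrsf13b came from internal starts. The pair counts rest on the single calls, which were 4 of 31 members in both ERY libraries and 15 of 31 in both labelled iMK. They were not set beside other pairs of genes, so they are no separate result on pairing.

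The other genes of the pathway, 64 in 6 lists, also differed in both directions for H3K27ac: of 58 with a peak, 20 rose in the pair labelled iMK and 10 in ERY, and 0 passed for H3K4me3 of 56 (limma adjusted p, with the shares over all genes given above). Of the 64 promoters 38 were called for H3K27ac in all 4 libraries, 13 were iMK-only and 0 were ERY-only. Over all protein-coding genes these classes held 36.0%, 8.56% and 2.17%, so few ERY-only promoters were to be found in any list of this length. Of the 7 ligands with other symbols 3 rose in the pair labelled iMK and 0 in ERY, and Cd40lg, Cd70 and Eda had no peak. The 3 are neighbours whose loci overlap, Ltb (0% in ERY, mean 63.5% in the libraries labelled iMK, limma adjusted p = 0.0065), Tnf (0% and 51.4%, 0.0065) and Lta (0% and 38.8%, 0.0065), the genes of TNF itself and of the lymphotoxins. Fasl, whose product kills by binding Fas, was covered at 29.5% and 14.4% in ERY and 0% in the others (limma adjusted p = 0.0718). Of 9 genes listed with the receptors of other symbols, not all of them receptors, 3 were higher in the libraries labelled iMK. They were Ltbr (mean 0% in ERY and 12.8%, limma adjusted p = 0.0159), Cd40 (0% and 5.09%, 0.00681) and Fas (0% and 3.5%, 0.0106). Relt was higher in ERY (79.7% and 44.1%, limma adjusted p = 0.0124).

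Downstream of the receptors the lists were divided. Of 11 genes listed with the adaptors, Traf4 (mean 67.1% in ERY against 1.48% in the pair labelled iMK, limma adjusted p = 0.00841) and Traip (54.5% and 9.73%, 0.00682) were higher in ERY. Traf3 (0% and 10.3%, 0.0162), Traf1 (0% and 8.74%, 0.0267) and Traf6 (3.47% and 6.94%, 0.0346) were higher in the libraries labelled iMK. Of 10 genes of death signalling 2 were higher in ERY, among them Mlkl, which carries out necroptosis (11.6% and 6.68%, 0.0302), and 1 was lower, Cflar, an inhibitor of caspase-8 (6.38% and 27.9%, 0.0126). Of 15 genes of the ubiquitin and kinase steps to NF-kB, 5 passed in each direction. Those higher in ERY were led by Rnf31, a subunit of the linear ubiquitin ligase (65.8% and 24.1%, 0.00816), Tab1 (36% and 4.73%, 0.0065) and Birc2, the gene of cIAP1 (32.4% and 5.15%, 0.00819). Those lower in ERY were led by Map3k14, the kinase NIK (0% and 24.5%, 0.00931), Map3k8 (0% and 20.1%, 0.0155) and Ikbkb (4.9% and 18.1%, 0.0132). Of 12 NF-kB subunits and inhibitors 5 rose in the pair labelled iMK and 0 in ERY, led by Nfkbia (9.47% and 29.7%, 0.00831) and Nfkbie (7.53% and 26.8%, 0.0151), which encode inhibitors, and Nfkb1 (2.05% and 12.3%, 0.0114). The neutrophil and macrophage markers moved with these genes, as given above, and their part was not tested.

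**Figure D5:**
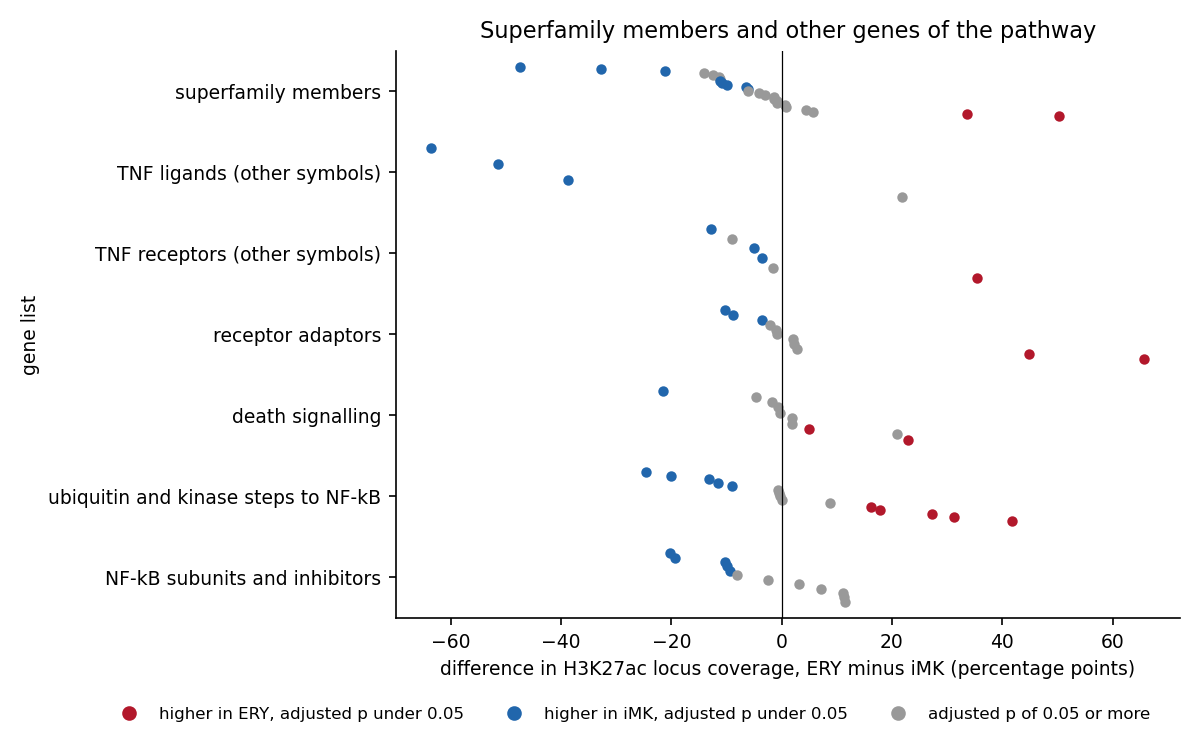
Difference in H3K27ac locus coverage, ERY minus iMK in percentage points, for each superfamily member and each gene of the 6 pathway lists with a peak (1 point per gene), colored where limma's adjusted p is under 0.05. The NF-kB list holds 5 genes higher in the pair labelled iMK and 0 higher in ERY, while the ubiquitin and kinase list holds 5 in each direction.

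The promoter sequences gave a mixed set. RefSeq windows of 300 bp were found for 24 of the 31 members (none here for Tnfrsf10b, Tnfrsf11b, Tnfrsf22, Tnfrsf26, Tnfsf4, Tnfsf9 and Tnfsf12), and motifs were searched on both strands of 1 window per member. The GC box GGGCGG was found in 12 members (50%, beside 35.7% of 32851 windows), the AP-1 motif TGANTCA in 4 (Tnfrsf8, Tnfsf13, Tnfsf13b and Tnfsf14, 16.7% beside 7.81%), and TATAAA in 4 (Tnfrsf17, Tnfrsf23, Tnfsf11 and Tnfsf18, 16.7% beside 13.6%). The GATA motif AGATAA was found in Tnfsf13b alone (4.17% beside 11.2%), GAGGAAGT, a form of the PU.1 motif, in Tnfsf18 alone (4.17% beside 3.2%), and the ETS motif CCGGAAGT and the NF-kB motif GGANTTTCC in none (3.89% and 1.25% of all windows). GAGGAAGT and CCGGAAGT share their last 6 letters. The windows held a median of 7.5 CG dinucleotides, from 2 to 43, beside a median of 7 over all windows. By H3K27ac class, the 7 iMK-only members with a window held 7 to 20 and the 4 shared members 2 to 6. The 4 unreplicated members held 4 to 12, and the 9 without a promoter call held 3 to 43. The window of Tnfrsf9 is at an inner start, and that of Tnfrsf13b is at the outermost start, which had no peak in any library. No match was found in these windows at Tnfrsf14 and Tnfrsf1a, which says only that these letters are not in them.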

How the data were processed

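H3K27ac and H3K4me3 ChIP-seq was represented by 8 deposited peak lists, 1 per library, and the 10 input samples were not used. Per the labels, SICER 1.1, Bowtie 1.0.0 and the build mm10 stand in the processing notes of the submitters, while the study's general methods name Bowtie and MACS and kept reads with several possible positions, and all peak edges were multiples of 200 bp. The authors gave each peak a fold of ChIP over control (a linear ratio) and a p-value and q-value, the q-value being at most 0.01. Peaks were deposited without read counts, so the depth is unknown and no counting interval is given.

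Peaks were set against the GENCODE vM21 annotation. Coverage per locus was compared between ERY and iMK with limma 3.58.1 (R 4.3.3, moderated test with a mean-variance trend, 2 libraries per group) over all genes with a peak, calling an adjusted p (Benjamini-Hochberg) under 0.05. An exact permutation test of 2 against 2 cannot go under 0.333 and was not used. Python 3.11.15, pandas 2.3.3 and numpy 2.4.6 made the tables. Tried on simulated data in which few genes were given known shifts, the fit missed most of them for H3K27ac and nearly all of them for H3K4me3. Far more genes passed in the H3K27ac data themselves, which eases the adjusted threshold, so the share missed there is not known from this trial. With 2 libraries per group, a gene that did not pass is not shown to be unchanged. Values in every library are given for members with a replicated promoter call or an adjusted p under 0.05, and values of other members with a peak stand beside them. Of each pathway list up to 3 genes a direction with the largest differences that passed are named, and sequences are shown for the members with the largest such differences. The members and gene lists were chosen with earlier results of these data known. Alternatives were the promoter window (500 bp, 2.5 kb), an overlap of 200 bp, the flank (none, 50 kb), stricter or equally long peak lists, all genes kept, an arcsine scale, quantile normalization, no trend and each library left out. Leaving out the promoters of other genes and using the outermost TSS alone were added after seeing the data. Some genes of the lists are counted but not reported by name here.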

Additional observations from a re-analysis of the deposited data

How the results depend on the processing

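With 2 libraries per group and no read depth in the lists, a missing peak is no measure of absence, and where 1 library is left out its partner is assumed to vary like the other group. No paired analysis was possible because the labels number no replicates. Of the member values under alternatives, 254 for H3K27ac kept their direction and side of the threshold (2 of these came to 0), 31 lost the call, 26 gained it and 6 turned their sign, and for H3K4me3 212 were kept, 18 gained a call and 12 turned. The H3K27ac difference turned for Tnfrsf26 with a flank of 50 kb (15.6 points, limma adjusted p = 0.00883), and, not passing limma, for Tnfrsf18 without a flank (4.34), with 50 kb (0.292), without ERY 2 (4.84) and without iMK 2 (3.08), with a lowest value of -6.6 without ERY 1, and for Tnfrsf9 under quantile normalization (-0.0553). The H3K4me3 difference turned, not passing limma, under quantile normalization for Tnfrsf11a (0.0848), Tnfrsf17 (1.42) and Tnfsf13b (0.0575), with equally long lists for Tnfrsf17 (1.14), Tnfrsf26 (3.17) and Tnfrsf9 (0.194), and for Tnfrsf14 with 50 kb (-0.188). With a library left out, H3K4me3 differences ranged from -3.05 without iMK 1 to 0.762 without iMK 2 for Tnfrsf17, in the same way from -9.01 to 1.22 for Tnfrsf26, from -23.6 to 4.05 for Tnfsf12 and from -30.2 to 5.23 for Tnfsf13, and from -0.376 without iMK 1 to 13.1 without iMK 2 for Tnfrsf14. The 2 of 25 members with more H3K27ac in ERY became 1 of 22 without a flank and 6 of 25 with 50 kb. Over all genes the 3189 of 14467 became 2314 of 12752 and 4752 of 17086, so the members did not move apart from all genes with 50 kb. The 8 of 25 with more in iMK became 4 of 31 when all genes were kept, while over all genes 2490 of 14467 became 1930 of 21938. Counts with a library left out are given above. H3K27ac ERY-only promoters, 0 in the analysis as reported, were 1 with a window of 2.5 kb and 0 to 3 with a library left out. For neither mark are the shares of the promoter classes over all genes under these alternatives given here. For H3K4me3, members with more in iMK went from 0 to 1 under quantile normalization and to 0 to 14 with a library left out, ERY-only promoters went from 0 to 1 with equally long lists and to 0 to 1 with a library left out, iMK-only promoters ranged from 4 to 15, and shared promoters from 0 to 2. Over all genes, quantile normalization gave 113 H3K4me3 calls higher in ERY and 177 higher in iMK in place of 0 and 0. The causes were not tested.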
